A study of Brassica napus with 27 samples.

Results

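The change of the picloram response between 2 and 48 h was followed in the treated leaf of Brassica napus seedlings. For each gene, the difference between picloram and control leaves at 2 h was subtracted from the same difference at 48 h, on the scale log2(FPKM + 1), where FPKM counts reads relative to gene length and to the scaled size of the library. The measure draws on 12 of the 27 libraries of the series, and on 46395 of the 104573 genes in the table, the genes that reached an FPKM of 1 in 3 or more of all 27 libraries. The 12 libraries form 4 groups of 3, which are control and picloram at 2 h and control and picloram at 48 h. All plants were cultivar Visby at the first-leaf stage (BBCH11), and all groups received 5 droplets on 1 leaf. The labels call the control leaves untreated, while the methods describe a solvent solution. Picloram (Pic) was given at 2.4 µg per leaf, and halauxifen-methyl (Hal), used below for comparison, at 0.5 µg per leaf, so that the doses of both herbicides differ. Plants grew 4 to a pot, the 3 replicates of a group came from different plant material, and leaves were frozen at harvest, so that no leaf was followed over time. Each of the 12 libraries held between 16058299 and 18096237 reads in genes.

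Picloram and halauxifen-methyl are synthetic auxins. In a plant cell, auxin brings an F-box receptor and an Aux/IAA repressor together, the repressor is degraded, and auxin response factors then switch on early genes such as those of the Aux/IAA and SAUR families. Aux/IAA genes thus rise after auxin and feed back on the pathway. Leaf cells also hold a fast defence programme, in which WRKY transcription factors, pathogenesis-related (PR) proteins, beta-1,3-glucanases and glutathione transferases take part, and which is known to respond to wounding, pathogens and many chemicals.

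A gene was called when the two-sided p of its limma test, adjusted by Benjamini-Hochberg over the 46395 genes, was under 0.05. At 2 h, 4949 genes were higher in Pic than in control leaves (10.7% of the genes tested) and 4348 were lower (9.37%). At 48 h, 6460 genes were higher (13.9%) and 8311 were lower (17.9%), which made 31.8% in either direction. The change between the harvests was called for 10694 genes (23%), of which 4476 had a positive change (9.65%) and 6218 a negative one (13.4%). The median standard error was 0.16 for a difference at one time and 0.23 for the change, on the log2 scale. With libraries scaled to equal totals of reads instead of the deposited scaling, the median change of all genes moved from -0.01 to 0.12, and the split turned to 6387 positive and 4551 negative calls. With equal totals, the calls at 48 h also turned, to 10455 higher and 5066 lower. Which direction prevailed over all genes, at 48 h and for the change, was therefore set by the scaling, and genes and lists are described beside that shift. Counts of genes higher or lower at 48 h are given for the deposited scaling. Over all genes, the 3 Pic libraries lay above the 3 control libraries in 18.6% of genes 2 h after treatment, in 18.8% after 48 h and in 26.1% after 96 h, and below them in 17.8%, 21.7% and 29.5%, which is the background for each statement below that groups did not overlap.

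Most early rises were not called as rises at 48 h. Of the 4949 genes that were higher at 2 h, 1140 were also called higher at 48 h (23.0%), 2713 were not called (54.8%) and 1096 were called lower (22.1%). Of the 4348 early falls, 1772 were still called lower at 48 h (40.8%), 2050 were not called (47.1%) and 526 were called higher (12.1%). Over all genes, 13.9% were called higher and 17.9% lower at 48 h. The 22.1% of early rises called lower thus lay little above the share of all genes, and the 12.1% of early falls called higher lay below it. The early rises and early falls share their libraries with the change, so genes picked for a rise at 2 h lean towards a negative change by their choice. The 48 h calls rest on other libraries, but on the same estimate of each gene's spread, fitted over all 27 libraries. A gene with a small spread is thus more readily called at both times, in either direction. Among the 1310 genes with an early rise of at least 1 on the log2 scale, 309 were higher and 362 lower at 48 h (23.6% and 27.6%).

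An early rise was named lost when the change was called negative and the gene was not called at 48 h, and reversed when the gene was then called lower. In all, 1623 genes were lost rises (3.5% of the genes tested) and 1096 were reversed rises (2.36%). Of the remaining early rises, 847 were kept (1.83%), 190 grew (0.41%) and 103 were reduced but still called (0.222%), and 1090 had no called change and no call at 48 h. The plot of the 2 h against the 48 h difference shows where these genes lay.

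**Figure D1:**
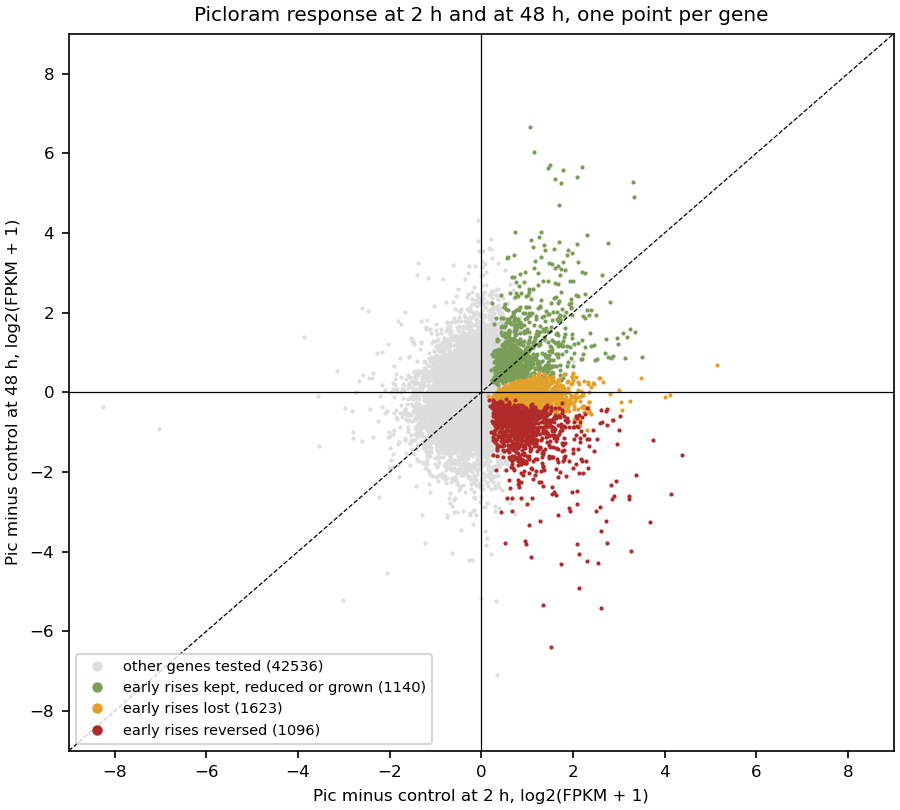
Difference between Pic and control leaves at 2 h (x axis) and at 48 h (y axis), both in log2(FPKM + 1), for 46395 genes, with early rises coloured by what followed. The 1096 reversed rises lie below the zero line at 48 h and the 1623 lost rises around it, with 1140 rises still called at 48 h above it, and the dashed line marks equal responses.

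In the lost rises, the median difference was 0.83 at 2 h and -0.12 at 48 h, while control leaves moved by a median of 0.16 from 2 to 48 h and Pic leaves by -0.77. In the reversed rises, the medians were 0.78 and -0.76, control leaves moved by 0.60 and Pic leaves by -1.05. Of the reversed rises, 720 were called higher in control leaves at 48 h than at 2 h (65.7%, against 16.9% of all genes, 30.4% in either direction), and 908 were called lower in Pic leaves (82.8%, against 20.3%, 39.8% in either direction). Of the lost rises, 529 were higher in control leaves at 48 h (32.6%) and 1160 were lower in Pic leaves (71.5%). These values use the libraries that chose the genes and describe the classes without testing them. With equal totals of reads, the median move of all genes between the harvests went from 0 to -0.23 in control leaves. In Pic leaves it went from 0.00 to -0.11. Calls in control leaves turned from 7837 higher and 6252 lower at 48 h to 3653 and 14435. The control rise of 0.16 in the lost rises was smaller than that shift, and the shares above hold for the deposited scaling.

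The largest reversed rises held a pair of PR1 genes, whose product is the textbook marker of salicylic acid dependent defence. The FPKM of PR-1a (BnaA03g38630D, on chromosome A03, scaffold LK031874, 1397946 to 1398575) was 74.1, 65.6 and 73.0 in the control libraries at 2 h and 385, 357 and 323 in the Pic libraries. Later, at 48 h, its FPKM was 309, 313 and 296 in the control libraries and 15.3, 15.8 and 15.0 in the Pic libraries. Pic leaves were thus higher than every control library at 2 h and lower than every control library at 48 h, and the level of the control leaves had risen in between. The difference was 2.31 ± 0.08 (SE, n = 3 per group) at 2 h and -4.23 ± 0.08 at 48 h, and the change was -6.54 ± 0.11 (limma adjusted p = 8.0e-23). In Hal leaves PR-1a had 36.2, 38.1 and 37.8 FPKM at 2 h and 577, 602 and 552 at 48 h, so that Hal leaves were below the control at 2 h and above it at 48 h.

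The second PR1 gene (BnaC03g45470D, on C03) had 77.9, 83.3 and 85.3 FPKM in the control and 428, 370.3 and 309.5 in the Pic libraries at 2 h. At 48 h its FPKM was 335, 275 and 300.4 in the control and 14.3, 20.5 and 17.3 in the Pic libraries, a change of -6.20 ± 0.16 (limma adjusted p = 2.8e-19). At 96 h the control libraries held 278, 264 and 313 and the Pic libraries 87.9, 102 and 92.4, so that the gene was still lower in Pic leaves, by 1.59 on the log2 scale. How reads shared by such near-identical copies of the A and C genomes were counted is not given in the sources used here, and values of single copies are uncertain to that extent.

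The most negative change among the genes ranked for description was that of BnaA07g12540D, annotated as glucose-6-phosphate 1-epimerase, an enzyme that converts the anomers of glucose 6-phosphate into each other. Its FPKM at 2 h was 48.3, 55.3 and 51.5 in the control and 134, 139 and 123 in the Pic libraries. By 48 h it stood at 99.5, 77.4 and 90.5 in the control and at 0.917, 1.50 and 1.30 in the Pic libraries, and at 96 h it had returned to 133, 158 and 127 in Pic against 252, 248 and 249 in control leaves. The change was -6.67 ± 0.20 (limma adjusted p = 7.2e-18). Hal leaves were also near zero at 48 h, with 2.39, 1.44 and 1.62 FPKM, so this gene differed from the PR1 genes, which were high in Hal leaves at that time.

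The trypsin inhibitor gene BnaA05g03390D, of a family of proteins that block digestive proteases of herbivores, had 0.851, 1.25 and 1.11 FPKM in the control and 12.7, 7.20 and 7.86 in the Pic libraries at 2 h. At 48 h the order was turned, with 10.1, 5.67 and 9.43 in the control and 1.36, 1.66 and 2.45 in the Pic libraries (change -4.00 ± 0.29, limma adjusted p = 1.4e-10). A thioredoxin gene (BnaA08g04320D), whose product reduces disulfide bonds in other proteins, had 10.7, 12.0 and 11.4 FPKM in control against 73.6, 57.7 and 41.0 in Pic leaves at 2 h. Its control level was little different at 48 h (9.30, 10.1 and 11.7), while the Pic libraries held 2.02, 2.42 and 2.82, a change of -3.93 ± 0.25 (limma adjusted p = 1.4e-11). For this gene the control leaves were not called between the harvests (-0.13, limma adjusted p = 0.63).

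**Figure D2:**
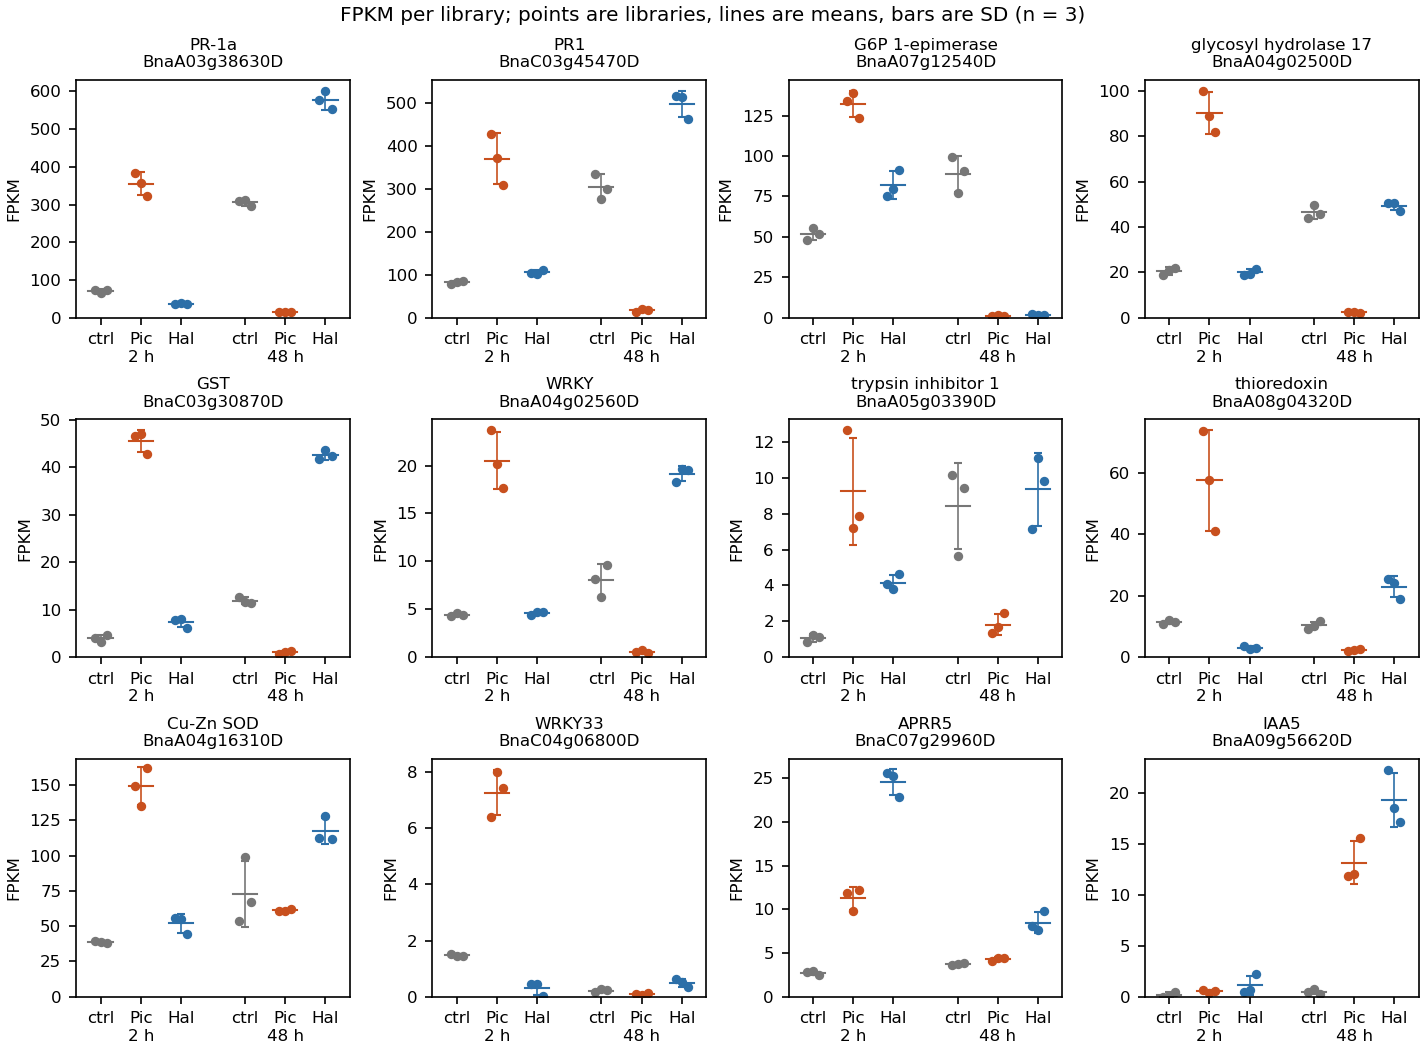
FPKM of 12 named genes in each library at 2 h and 48 h for control, Pic and Hal leaves, with the mean and SD of 3 libraries. In the first 8 genes Pic lies above control at 2 h and below it at 48 h, in Cu-Zn SOD, WRKY33 and APRR5 the 2 h rise is no longer called at 48 h, and IAA5 rises at 48 h.

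Among lost rises with a description in the table, the largest change was that of a glutathione transferase of the tau class (BnaC01g39170D, annotated as U8), an enzyme class that couples glutathione to foreign compounds, herbicides included. It had 0.639, 0.702 and 1.33 FPKM in the control and 9.77, 10.3 and 6.04 in the Pic libraries at 2 h, and 2.03, 2.13 and 1.16 against 1.02, 0.978 and 0.874 at 48 h. The Pic libraries lay below the control libraries at 48 h by a difference that was not called (limma adjusted p = 0.12). The change was -2.83 ± 0.33 (limma adjusted p = 4.2e-07), and the gene lay in a stretch of C01 where the 50 neighbours on each side had a median difference of -0.09 at 2 h and 0.40 at 48 h, a shift whose part in its values was not tested. A second thioredoxin (BnaCnng25840D) had 3.35, 4.65 and 3.62 FPKM in control and 25.9, 24.8 and 16.3 in Pic leaves at 2 h. By 48 h the Pic libraries (1.78, 2.44 and 3.10) overlapped the control libraries (5.07, 4.12 and 2.50).

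A Cu-Zn superoxide dismutase gene (BnaA04g16310D), whose enzyme removes superoxide, had 39.5, 38.8 and 37.8 FPKM in the control and 149.6, 135 and 162 in the Pic libraries at 2 h. Its FPKM at 48 h was 53.4, 98.8 and 66.8 in the control and 60.4, 60.9 and 62.0 in the Pic libraries, so that both groups overlapped (change -2.12 ± 0.20, limma adjusted p = 1.8e-08). A DETOXIFICATION carrier (BnaC01g00120D), of a family that exports metabolites and toxins, had 1.01, 1.22 and 0.773 against 5.11, 5.55 and 6.79 FPKM at 2 h. Its level at 48 h was 1.03, 0.449 and 1.02 in control and 0.754, 0.564 and 0.481 in Pic leaves, and it also lay in a stretch of C01 with shifted neighbours.

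The gene annotated as WRKY33 (BnaC04g06800D), a regulator of responses to necrotrophic fungi in Arabidopsis, was the last of the 5 lost rises named by rank, which was limited to genes with a description. It had 1.53, 1.46 and 1.46 FPKM in control and 6.40, 7.99 and 7.42 in Pic leaves at 2 h, and at most 0.260 in any control or Pic library at 48 h. The control level itself had fallen (-1.03 on the log2 scale, limma adjusted p = 9.7e-06), and the 48 h difference of -0.14 was not called (limma adjusted p = 0.51).

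Among the gene lists with 10 or more tested genes, WRKY transcription factors had the highest share of members higher at 2 h and the highest share with a negative change. Of 119 WRKY genes tested, 55 were higher at 2 h (46.2%, against 10.7% of all genes) and 0 were called lower by limma, with 1 lower at an unadjusted p under 0.05 and 0 by limma voom. At 48 h, 7 were higher and 21 lower, and 1 of the 55 early rises was still called. The change was called negative for 54 WRKY genes (45.4%, against 13.4%) and positive for 4, with 29 lost and 18 reversed rises. The median difference of the list was 0.46 at 2 h, -0.14 at 48 h and 0.15 at 96 h, against -0.01, 0.00 and -0.01 for all genes. The median change was -0.61, or -0.53 with equal totals, and leaving out any 1 of the 12 libraries left 50 to 56 negative changes.

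The summed FPKM of the 119 WRKY genes was 256 ± 5.58 in the control and 507 ± 25.2 in the Pic libraries at 2 h (mean ± SD, n = 3). At 48 h it was 250.0 ± 20.9 in the control and 187 ± 3.56 in the Pic libraries, and in Hal leaves it was 244 ± 14.6 at 2 h and 448 ± 2.62 at 48 h. The sum was thus raised early by Pic and late by Hal, and groups did not overlap at either time except Hal and control at 2 h. The WRKY gene with the most negative change, BnaA04g02560D, followed this course. It had 4.26, 4.58 and 4.44 FPKM in the control and 23.7, 20.2 and 17.7 in the Pic libraries at 2 h, and 8.15, 6.25 and 9.63 against 0.574, 0.721 and 0.414 at 48 h (change -4.49 ± 0.23, limma adjusted p = 4.3e-13).

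Another WRKY gene (BnaC09g36400D) was present almost only in Pic leaves at 2 h, with 9.19, 6.17 and 6.37 FPKM against 0.438, 0.285 and 0.253 in the control. It had no read in the Pic libraries at 48 h, where the control libraries held 18 reads in all, which makes Pic at least 7.07-fold lower against a floor of 3 reads over the group.

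PR protein genes also rose early, and reversals outnumbered losses among them. Of 51 tested genes of thaumatins, PR1 proteins, chitinases and defensins, which attack or bind fungal walls and membranes, 20 were higher at 2 h (39.2%) and 2 lower. At 48 h, 9 were higher and 13 lower, and the change was negative for 22 (43.1%) and positive for 2, or 19 and 6 with equal totals, with 6 lost and 11 reversed rises. Their median difference was 0.33 at 2 h, -0.04 at 48 h and -0.22 at 96 h. The summed FPKM was 765 ± 42.9 in control and 1868 ± 231 in Pic leaves at 2 h, then 2007 ± 221 in control, 1262 ± 152 in Pic and 3053 ± 163 in Hal leaves at 48 h. The control libraries at 48 h overlapped the Pic libraries of 2 h, and Pic leaves at 48 h lay below every control library.

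Among 74 genes of the glycosyl hydrolase family of beta-1,3-glucanases (PR-2 proteins, which cut glucans of fungal walls and callose), 12 were higher at 2 h (16.2%) and 4 lower. Of all genes, 10.7% were higher at 2 h. Of the 12 rises in the family, 6 were reversed. At 48 h, 9 members were higher and 15 lower (20.3%, against 17.9% of all genes). The change was negative for 12 (16.2%, against 13.4% of all genes) and positive for 3, and these shares lay near those of all genes. The positive changes numbered 9 without control replicate 2 at 48 h, and the split was 11 to 11 with equal totals. The family median was therefore near zero at both times (0.10 and 0.08), and the rises named here were those of abundant members. BnaA04g02500D had 18.8, 21.1 and 21.8 FPKM in the control and 100.1, 88.9 and 81.8 in the Pic libraries at 2 h, and 44.0, 49.6 and 45.6 against 2.61, 2.63 and 2.00 at 48 h (change -5.88 ± 0.13, limma adjusted p = 3.2e-20). A more abundant member (BnaC04g24330D) had 83.9, 87.8 and 89.1 against 286, 255 and 226 at 2 h, and 188, 195 and 209.8 against 36.8, 34.3 and 40.9 at 48 h. In both genes the libraries of Pic and control were apart at each time, in opposite order.

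Of 77 glutathione transferase genes tested, 19 were higher at 2 h (24.7%) and 10 lower, and 28 were lower at 48 h (36.4%) and 10 higher. The change was negative for 23 (29.9%) and positive for 8, or 20 and 13 with equal totals, with 6 lost and 7 reversed rises. The rule for named genes gave a pair of members. BnaC03g30870D had 4.10, 3.24 and 4.71 FPKM in control against 46.6, 47.1 and 42.9 in Pic leaves at 2 h, and 12.7, 11.6 and 11.5 against 0.770, 1.01 and 1.32 at 48 h (change -5.90 ± 0.17, limma adjusted p = 4.9e-18). BnaA03g26130D had 3.90, 2.23 and 3.44 against 33.4, 28.1 and 28.2 at 2 h, and 9.69, 8.24 and 10.7 against 1.15, 0.468 and 0.658 at 48 h. Both genes carry the N-terminal glutathione transferase domain and have no description in the table.

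Other groups lost early rises in part. Of 108 sugar transporter genes, 31 were higher at 2 h (28.7%, against 10.7% of all genes) and 12 lower, and 25 were higher and 24 lower at 48 h. The change was negative for 31 (28.7%, against 13.4%) and positive for 12, or 27 and 16 with equal totals. There were 10 lost and 13 reversed rises among these genes. One of them, BnaCnng67460D, had 3.33, 3.32 and 2.46 FPKM in control and 8.73, 7.44 and 7.17 in Pic leaves at 2 h. At the later harvest it was without a read in all Pic libraries while the control libraries held 3.10, 5.62 and 2.34 FPKM, so that Pic was at least 45.7-fold lower against 3 reads over the group. Hal leaves were also without a read at 48 h.

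Of 98 U-box ubiquitin ligase genes, 30 were higher at 2 h (30.6%, against 10.7% of all genes) and 5 lower. Their change was negative for 19 (19.4%, against 13.4% of all genes) and positive for 9, or 13 and 13 with equal totals. Over all genes, 1623 of the 4949 early rises were lost, and among the 30 of U-box genes 12 were lost. The number lost among U-box genes was 7 without control replicate 1 or 3 at 2 h and 8 without Pic replicate 2 at 2 h. Among 96 heat shock proteins and factors, which fold and protect other proteins, 18 were higher at 2 h and 9 lower, while 2 were higher and 25 lower at 48 h. Their change was negative for 29 (30.2%) and positive for 1, or 27 and 5 with equal totals and 30 and 4 without control replicate 2 at 48 h, whereas the median change was -0.15 and became 0.01 with equal totals. At 96 h with the deposited scaling, 42 heat shock genes were higher and 10 lower in Pic leaves. Of all genes, 22.2% were higher and 26.4% lower there (48.6% in either direction).

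Immune receptor genes carrying a TIR domain or a nucleotide-binding domain had 19 of 132 members higher at 2 h (14.4%, against 10.7% of all genes). Their change was negative for 20 (15.2%) and positive for 11 (8.33%), shares near the 13.4% and 9.65% of all genes. The member with the most negative change among early rises, BnaA09g13280D, had 5.37, 5.66 and 5.53 FPKM in control against 28.2, 24.7 and 23.4 in Pic leaves at 2 h. Its later values, at 48 h, were 2.16, 1.34 and 2.32 against 0.905, 0.237 and 0.698, a change of -2.89 ± 0.22 (limma adjusted p = 3.5e-10).

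**Figure D3:**
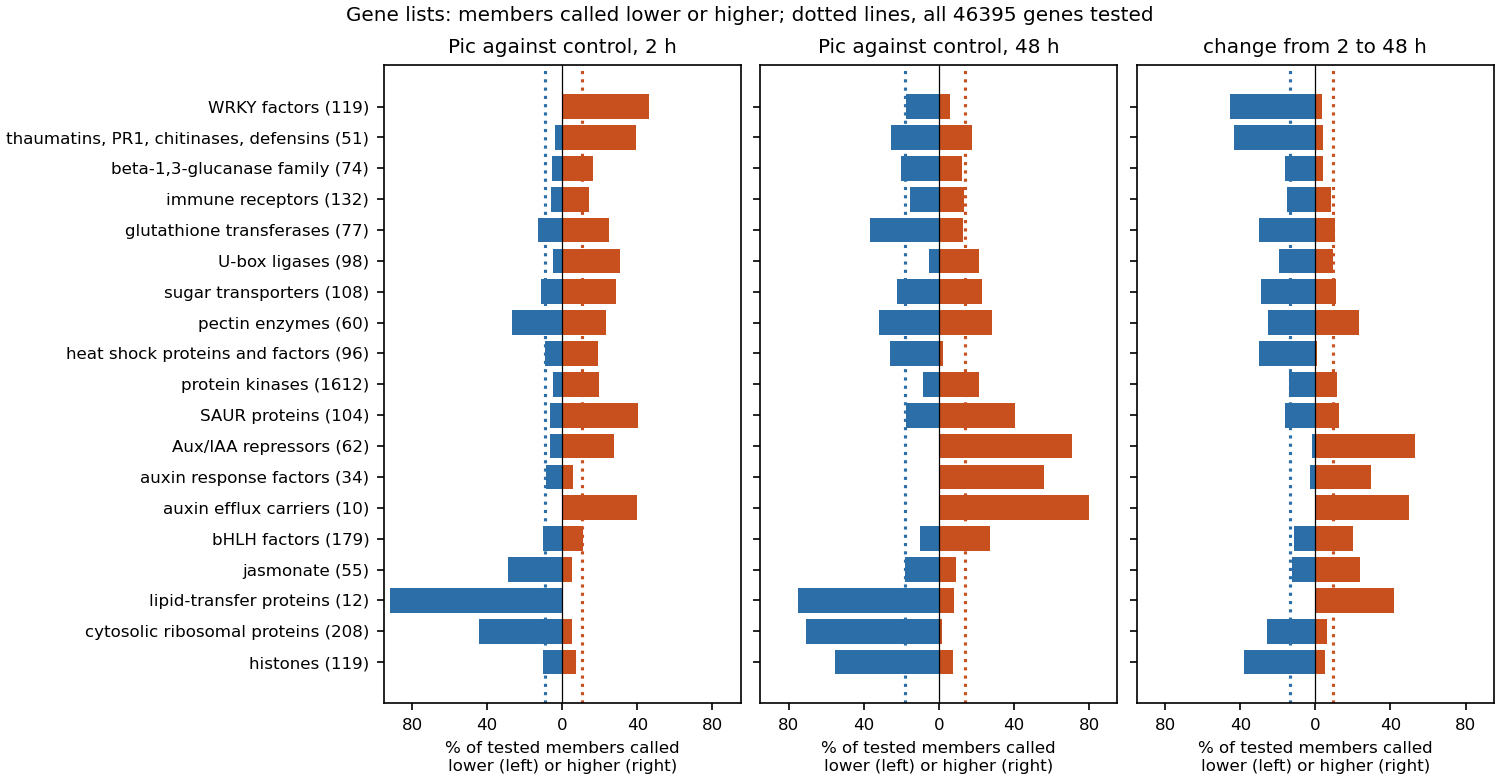
Share of tested members (number in brackets) called higher (right, orange) or lower (left, blue) in Pic leaves at 2 h, at 48 h and for the change, for 19 gene lists, with dotted lines at the shares of all 46395 genes. WRKY genes go from 46.2% higher at 2 h to 45.4% with a negative change, and Aux/IAA genes have 71.0% higher at 48 h.

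Of 179 bHLH genes, a family of DNA-binding factors, 20 were higher at 2 h (11.2%) and 18 lower (10.1%). These shares were near the 10.7% and 9.37% of all genes. Of the 20 rises 12 were lost, while 49 members were higher at 48 h (27.4%, against 13.9% of all genes) and 24 were late rises. The named early rises of this family were nearly silent in control leaves at 2 h. BnaA04g02900D had 15.6, 12.0 and 10.5 FPKM in Pic against 0.146, 0.569 and 0 in control leaves at 2 h. It had at most 0.638 in any control or Pic library at 48 h (change -3.12 ± 0.28, limma adjusted p = 9.4e-09). BnaCnng64770D had 9.76, 7.77 and 7.15 in Pic against 0.117, 0.344 and 0 in control leaves at 2 h, with a change of -2.94 ± 0.29 (limma adjusted p = 3.5e-08). A UDP-glycosyltransferase gene (BnaA05g27700D), of an enzyme family that attaches sugars to hormones and foreign compounds, had 11.9, 11.8 and 12.7 FPKM in Pic and 0.888, 1.30 and 0.756 in control leaves at 2 h. In the 48 h libraries it had 0, 0 and 0.0442 in Pic and 0.922, 0.968 and 0.539 in control leaves.

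The clock gene APRR5 (BnaC07g29960D), a pseudo-response regulator that represses morning genes, was a lost rise whose change over time was not called different between Pic and Hal (0.23 ± 0.14, limma adjusted p = 0.23). That test compares the change from 2 to 48 h and does not say whether the rise was also lost in Hal leaves. APRR5 had 2.84, 2.93 and 2.51 FPKM in control, 11.8, 9.75 and 12.2 in Pic and 25.6, 25.2 and 22.8 in Hal leaves at 2 h. At 48 h the levels were 3.61, 3.79 and 3.84 in control and 4.05, 4.45 and 4.38 in Pic leaves, a difference of 0.16 that was not called (limma adjusted p = 0.24). By 96 h it was higher in Pic leaves again, with 10.5, 9.96 and 10.4 against 3.34, 3.46 and 3.10 in control leaves.

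Auxin response genes took another course, and most of their early rises were called again at 48 h. Of 62 Aux/IAA genes, 17 were higher at 2 h (27.4%) and 44 at 48 h (71.0%), with 0 called lower at 48 h by limma (1 at an unadjusted p under 0.05, 0 by limma voom), and 16 of the 17 early rises were still called. The change was positive for 33 (53.2%) and negative for 1, and 1 early rise was lost. The median difference was 0.04 at 2 h, 0.88 at 48 h and 0.56 at 96 h. Their summed FPKM was 338 ± 8.11 in control and 456 ± 65.9 in Pic leaves at 2 h, and 427 ± 47.8 and 1181 ± 66.6 at 48 h, where Hal leaves had 1232 ± 82.0.

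SAUR genes, small early auxin-induced proteins of cell expansion, had 42 of 104 members higher at 2 h (40.4%) and 42 at 48 h, and 29 were called higher at both. Unlike Aux/IAA genes, SAUR genes also had members lower at 48 h, 18 in all (17.3%, against 17.9% of all genes), and 7 were lower at 2 h. Of their early rises, 6 were lost and 4 reversed, and the change was called for 13 upwards and 17 downwards, or 16 and 13 with equal totals. Of 10 auxin efflux carrier genes, which move auxin out of cells, 4 were higher at 2 h and 8 at 48 h, with 0 called lower at either time by limma, by limma voom or at an unadjusted p under 0.05. Among 34 auxin response factors, 2 were higher at 2 h and 19 at 48 h, with a positive change for 10 and a negative one for 1. That count of 10 was 5 without Pic replicate 1 at 2 h, and 6 without control replicate 2 at 2 h or control replicate 3 at 48 h.

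**Figure D4:**
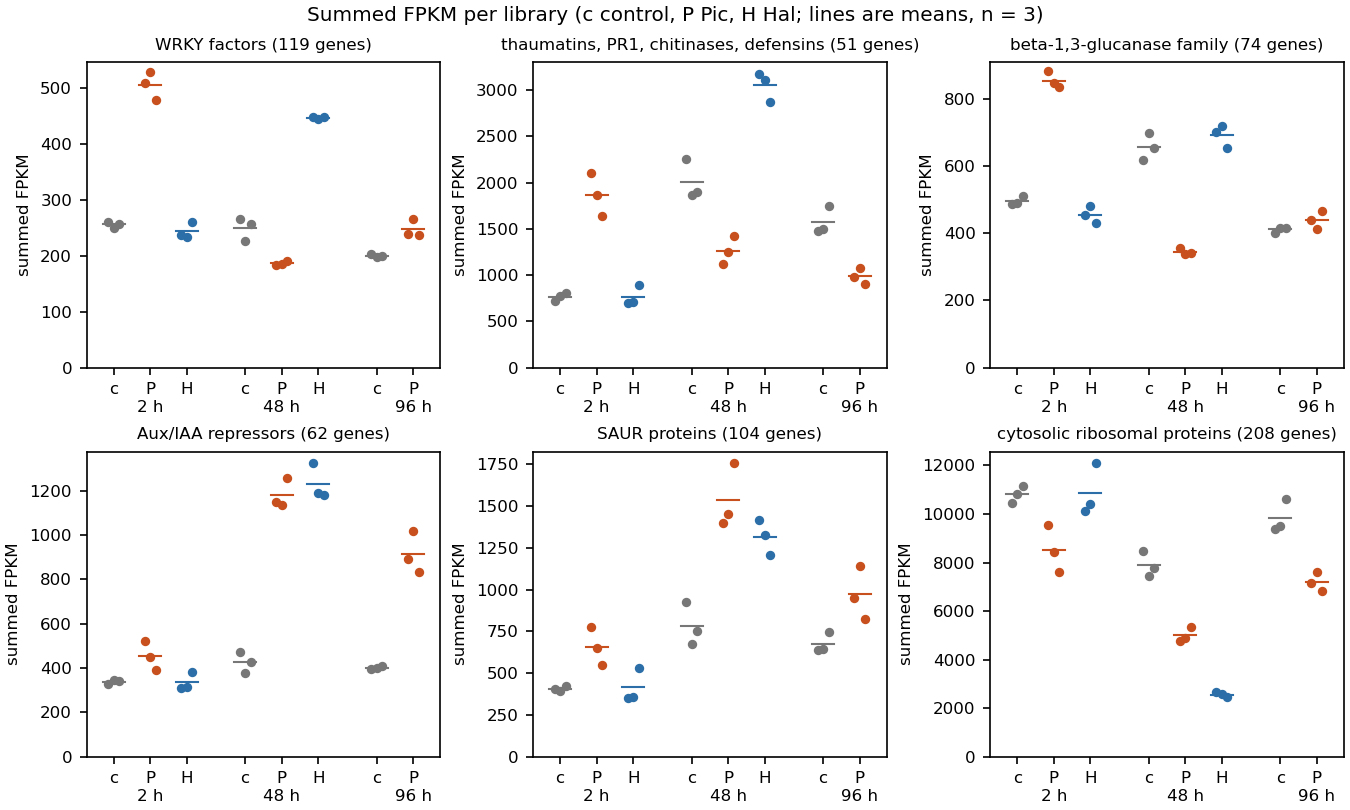
Summed FPKM per library for 6 gene lists in control (c), Pic (P) and Hal (H) leaves at 2 and 48 h and in control and Pic leaves at 96 h, with the mean of 3 libraries. WRKY genes, PR genes and glucanases are highest in Pic leaves at 2 h within that harvest and low in Pic leaves at 48 h, Aux/IAA genes rise at 48 h, and ribosomal protein genes are lower in Pic than in control leaves at each time.

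Late rises, not called at 2 h and called higher at 48 h with a positive change, comprised 2376 genes (5.12%), 18 of them Aux/IAA genes. The gene annotated as IAA5 (BnaA09g56620D) had at most 0.615 FPKM in any control or Pic library at 2 h. By 48 h it had 11.8, 12.0 and 15.6 FPKM in Pic and 0.437, 0.764 and 0.279 in control leaves, a change of 2.89 ± 0.36 (limma adjusted p = 1.4e-06). An adenylyl-sulfate kinase gene (BnaC05g47640D), of the enzyme that makes the sulfate donor for sulfated metabolites, had 14.1, 12.7 and 15.9 against 0.609, 0.457 and 1.17 at 48 h. Its level in Pic leaves was similar at 96 h (11.5, 13.4 and 13.6).

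Late falls comprised 2827 genes (6.09%), among them genes of chromatin and protein synthesis. Of 119 histone genes, 36 were late falls (20 with equal totals), 66 were lower at 48 h (55.5%) against 12 at 2 h, and the change was negative for 45 (37.8%) and positive for 6, or 30 and 11 with equal totals. Of 208 cytosolic ribosomal protein genes, 92 were already lower at 2 h (44.2%) and 147 at 48 h (70.7%), with a negative change for 54 and a positive one for 13, or 28 and 18 with equal totals, and 30 late falls, or 12 with equal totals. A CASP-like gene (BnaC03g71650D), of a family of membrane proteins, had 17.8, 14.8 and 14.6 FPKM in control leaves and no read in Pic leaves at 48 h, at least 189-fold lower against 3 reads over the group. At 96 h it had 11.6, 12.7 and 11.2 in Pic and 11.5, 10.6 and 7.64 in control leaves. A peroxidase gene (BnaC02g42930D) had 4.90, 7.63 and 4.82 against 0, 0.123 and 0 at 48 h.

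Early falls were lost in 933 genes (2.01%), reversed in 526 (1.13%) and kept in 1408 (3.03%). A lipid-transfer protein gene (BnaA05g34760D), of small proteins that carry lipids to the leaf surface, had 13.2, 16.2 and 15.7 FPKM in control and 0.645, 0.484 and 0 in Pic leaves at 2 h. At 48 h the control leaves themselves were at 0.436, 0.229 and 0.626, so that the loss of the difference came with a low control level and no rise in Pic leaves. The gene annotated as GATA transcription factor 15 (BnaA01g32640D) had 15.4, 17.2 and 15.6 against 6.36, 3.64 and 1.67 at 2 h, and 12.0, 6.40 and 6.06 against 9.89, 8.76 and 9.64 at 48 h. The reversed falls named by the rule were both pectate lyases, which cut pectin in cell walls. BnaA03g46920D had 3.96, 4.07 and 4.12 FPKM in control and 3.02, 2.71 and 3.49 in Pic leaves at 2 h, and 5.51, 5.92 and 6.75 against 34.3, 24.2 and 29.3 at 48 h. BnaA07g38610D had 4.58, 5.73 and 5.26 against 2.58, 3.15 and 3.08, and later 2.80, 2.57 and 1.56 against 9.99, 10.6 and 9.58.

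No contrast that forms the classes compares the libraries at 96 h. These libraries did enter the gene filter and the estimate of each gene's spread. Of the lost rises, 489 were higher and 264 lower in Pic leaves at 96 h (30.1% and 16.3%), against 22.2% and 26.4% of all genes (48.6% in either direction). Of the reversed rises, 262 were higher and 439 lower (23.9% and 40.1%), and the kept rises had 55.6% higher. With equal totals of reads, calls at 96 h over all genes turned from 10277 higher and 12262 lower to 19032 and 5854. The median difference of all genes moved from -0.01 to 0.28, while the median of the reversed rises was -0.15 with the deposited scaling. The shares at 96 h therefore hold for the deposited scaling only. Of the 119 WRKY genes, 33 were higher and 13 lower at 96 h. PR-1a had 102, 119 and 100.2 FPKM in Pic and 123, 135 and 144 in control leaves, a difference of -0.32 ± 0.08 (limma adjusted p = 0.0011), which was smaller than at 48 h.

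**Figure D5:**
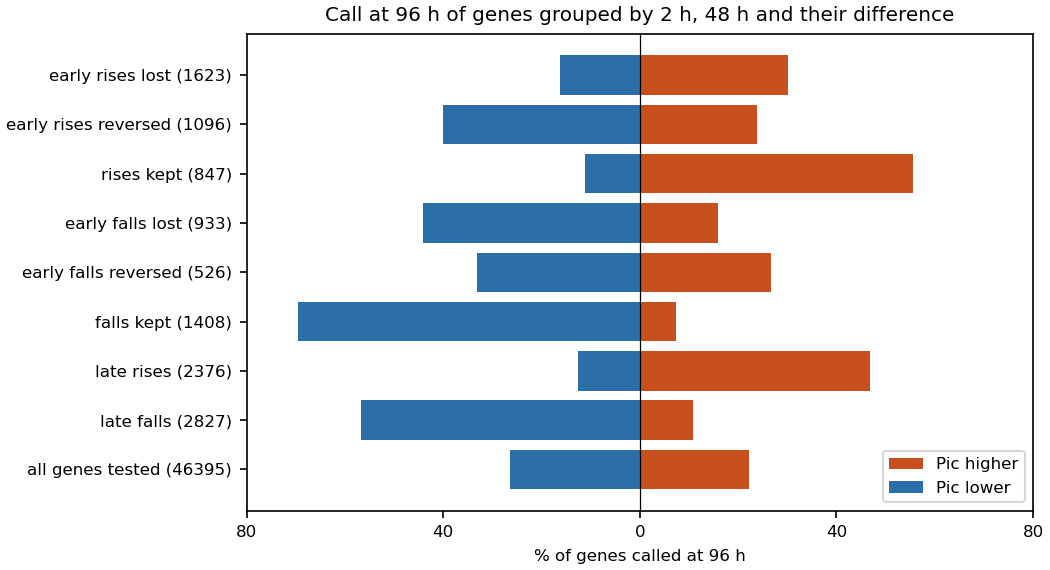
Share of genes called higher (right, orange) or lower (left, blue) in Pic than in control leaves at 96 h, for genes grouped by their calls at 2 and 48 h, with the number of genes in brackets. With the deposited scaling, reversed rises were lower in 40.1% and higher in 23.9%, and kept rises were higher in 55.6%. All genes were lower in 26.4% and higher in 22.2%.

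The same difference over time was set against that of Hal, in which the control leaves cancel, and which holds for these unequal doses only. Over all genes, the Pic change was lower than the Hal change for 7214 genes (15.5%) and higher for 7331 (15.8%), 31.4% in either direction. Among lost rises it was lower for 1091 and higher for 97 (67.2% and 5.98%), and among reversed rises for 660 and 108 (60.2% and 9.85%), where the Pic libraries had also chosen the genes. With equal totals of reads, the calls over all genes turned to 9572 lower and 5686 higher, and the median of this contrast moved from 0.01 to -0.11. The shares given here hold for the deposited scaling. Of the 119 WRKY genes, 76 had a lower and 1 a higher change with Pic, also with the deposited scaling. The medians of these genes in Hal leaves were -0.09 at 2 h and 0.31 at 48 h, against 0.46 and -0.14 in Pic leaves.

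Leaf markers were high in every library, since the summed FPKM of chlorophyll a-b binding and Rubisco small chain genes lay between 98665 and 198111, and 11 of 16 seed storage genes were at 0 in all libraries, the others summing to at most 1.38. The leaf marker sum was 115386 ± 4452 in control and 109005 ± 7387 in Pic leaves at 2 h, and 184798 ± 13729 and 159703 ± 7633 at 48 h. Its part in the results was not tested, and in such bulk leaf samples fewer cells of a type and less RNA per cell cannot be told apart.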

How the data were processed

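Leaf RNA-seq libraries of Brassica napus were compared. The deposited table gives FPKM per gene, which the authors had scaled by median-ratio size factors in place of library totals, as a match of the divisors to such factors showed. The submitters' processing notes name CASAVA, HISAT2, StringTie, DESeq2, edgeR and GATK. Versions, genome build and the treatment of shared reads are not given in the sources used here. Gene positions are those of the table, on its scaffolds. Whole reads were worked back in 100% of values (tolerance 0.1 read), and the 27 libraries held 15565637 to 19692242 reads.

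Groups were taken from the labels, with 3 libraries in each of 9 groups. log2(FPKM + 1) was fitted with limma 3.58.1 in R 4.3.3 over all 27 libraries (trended empirical Bayes), and the contrasts were adjusted by Benjamini-Hochberg over 46395 genes. A fold change on this scale understates the change of low genes. The filter left out 58178 genes. Near it, 1491 genes reached 1 FPKM in exactly 3 libraries (median of mean FPKM 0.492) and 1682 in exactly 2 (0.402). The procedure was tested on simulated data. Other summaries used Python 3.11.15.

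Gene lists were formed by words of the deposited descriptions (present for 6017 protein-coding genes) and by protein domains (31283 genes), so members without either were missed. Named genes had a mean FPKM of 5 or more in some of the 4 groups. Among those with a description, and with Pic and control libraries apart at each time the class needed a call, the largest changes were taken (5 each of lost and reversed rises, 2 of each other class), and from each list the 2 lost or reversed rises with the most negative change, of which a part is described. Members, lists and the rule were chosen with earlier results of these data known, and list patterns were adapted to the wording of the table. No sequences were used, as the reference table holds gene names of another assembly.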

Additional observations from a re-analysis of the deposited data

Results flagged for a closer look

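The response to Pic differed between 2 and 48 h for 10694 genes by the test of the difference, and the change over time differed between Pic and Hal for 14545 genes. In the 10 early rises named by rank, the Pic change minus the Hal change was called in each (limma, Benjamini-Hochberg adjusted over all genes), with n = 3 per group. These genes were picked for the size of their Pic change, which uses the same Pic libraries, so their choice favoured a negative difference. APRR5, a lost rise outside this ranking, was not called. The difference was -8.35 for PR-1a (BnaA03g38630D) and -6.56 for the other PR1 gene (BnaC03g45470D). For the thioredoxins it was -6.59 (BnaA08g04320D) and -4.26 (BnaCnng25840D). It was -4.21 for the glutathione transferase BnaC01g39170D, -3.11 for WRKY33 (BnaC04g06800D), -2.83 for the trypsin inhibitor BnaA05g03390D, -2.69 for the DETOXIFICATION carrier BnaC01g00120D and -2.43 for the superoxide dismutase BnaA04g16310D. The smallest was -1.01 for the epimerase BnaA07g12540D, which was low in both herbicides at 48 h.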

How the results depend on the processing

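The counts of calls kept to within 1.5 times of the reported ones under a pseudocount of 0.1, no filter, only the 12 libraries, limma voom on worked-back reads, without genes in shifted stretches and without any 1 of the 12 libraries. Leaving out 1 library gave 9416 to 11375 calls for the change, 1364 to 1686 lost and 925 to 1183 reversed rises, including the fit without Hal replicate 3 at 2 h, added after seeing the data because that library had the fewest genes with reads (53523). Lost rises numbered 1359 with the pseudocount of 0.1 and 1975 with no filter. Of the lost rises 1213 were also lost rises with equal totals, and of the reversed rises 796 were also reversed. Counts that moved further were, with FPKM of at least 5, 896 lost rises, 1180 late rises and 14081 calls at 96 h. With equal totals there were 3741 late rises and 1576 late falls. With a log2 difference of at least 1 in every contrast used, calls fell to 4424 for the change, 1862 at 2 h, 2871 at 48 h, 5167 at 96 h, 2185 for control leaves between harvests and 6489 for Pic against Hal, with 727 lost and 180 reversed rises, 213 lost and 21 reversed falls, 728 late rises and 861 late falls. That fewer genes pass a size limit follows from its construction, and the cause of the other shifts was not tested. All 18 genes named by rank kept direction and call under every alternative in which they were tested (393 values). Replicate numbers did not pair libraries: correlations of same-numbered deviations lay between -0.072 and -0.005 among the 2 h libraries and between -0.110 and 0.021 among the 48 h libraries. With a replicate block the change was called for 9766 genes, with 1522 lost and 981 reversed rises, and control leaves between harvests gave 8879 calls. By the coding of the blocks, that last count compares the harvests at the level of replicate 1 and not of the group means. It cannot be set beside the 14089 calls without blocks. A count test on worked-back reads (edgeR) was planned and not run, since the deposited unit is FPKM.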

Other observations

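Early and late changes in other gene groups did not form a common course. Of 1612 protein kinase genes, 313 were higher at 2 h (19.4%) and 78 lower, and 121 of the rises were lost and 34 reversed, while the change was positive for 187 and negative for 225, a split that turned to 257 and 172 with equal totals. At 96 h with the deposited scaling, 667 kinase genes were higher and 114 lower in Pic leaves. Of all genes, 22.2% were higher and 26.4% lower there. Of 134 NAC factors, regulators of senescence and stress, 31 were higher at 2 h (23.1%) and 38 at 48 h (28.4%), and 11 rises were lost and 5 reversed, with 3 reversed without control replicate 3 at 2 h and 8 without control replicate 2 at 48 h. UDP-glycosyltransferases had 33 of 131 members higher at 2 h and 35 at 48 h, with 13 lost and 5 reversed rises.

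Some groups fell early. Of 12 lipid-transfer protein genes, 11 were lower at 2 h (91.7%) and 9 at 48 h, and their summed FPKM was 2409 ± 139.9 in control and 1431 ± 229 in Pic leaves at 2 h, and 3689 ± 345 and 2228 ± 263 at 48 h. Of 55 jasmonate genes, 16 were lower at 2 h (29.1%) and 3 higher, and 10 were lower and 5 higher at 48 h. Xyloglucan enzymes and expansins, which loosen cell walls, moved both ways, with 18 of 65 higher and 23 lower at 2 h, and 20 positive and 20 negative changes.

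Some early rises and falls came in stretches of neighbouring genes. Along the gene order of each chromosome, 2208 tested genes lay where the median difference of the 50 neighbours on each side departed by 0.3 or more on the log2 scale from that of all genes, at 2 or 48 h. They held 184 of the lost and 142 of the reversed rises. The 203 such genes of C02, most of them at the start of the chromosome, had a median difference of 0.61 at 2 h and -0.46 at 48 h, and 75 of them (36.9%) were reversed rises, against 2.36% of all genes. The median moved by 0.49 in control leaves and by -0.53 in Pic leaves from 2 to 48 h. At the start of C03, 116 genes had medians of 0.78 and 0.00, with 35 lost and 16 reversed rises. Larger sets lay on C06 and A07. On C06, 863 genes had medians of -0.31 and -0.48, with 144 of the 203 late falls in such stretches. On A07, 631 genes had medians of 0.22 and 0.25, with 64 lost and 18 reversed rises. Since each group came from other plants, a response to Pic and a difference between the sampled plants that spans such a stretch cannot be told apart, and the calls in these stretches, those of the named C01 genes included, are to be read with that limit.

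These stretches hold genes of unrelated families. Among them was a 40S ribosomal protein S4 gene (BnaC02g01730D), with 15.1, 11.6 and 13.1 FPKM in control and 26.3, 24.5 and 21.4 in Pic leaves at 2 h, and 17.4, 16.4 and 15.4 against 2.48, 3.19 and 2.23 at 48 h. Without genes in shifted stretches there were 1439 lost and 954 reversed rises, and the WRKY list had 53 negative changes, 28 lost and 18 reversed rises. Among the PR genes, 18 negative changes, 3 lost and 10 reversed rises were left.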
